A study of Mus musculus with 8 samples.

Results

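The developmental transcription factor families described here were the mouse protein-coding genes of the Hox, Pax, Sox, Fox, Tbx, Lhx, Dlx, Irx and Six-family groups. They were found by gene symbol: a symbol of the GENCODE M21 annotation (genome build mm10) that starts with a family name (with the cluster or subclass letter for Hox and Fox genes) and goes on with a number. The rule found 150 of 21951 protein-coding genes, of which 44 were Fox, 39 Hox, 19 Sox, 13 Tbx, 9 Pax, 8 Lhx, 6 Dlx, 6 Irx and 6 Six-family genes. A gene was counted as carrying a peak when at least 1 bp of a peak of any score lay in the gene body extended by 1 kb on each side.

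The 4 peak lists came from DRIP-seq, in which the S9.6 antibody pulls down DNA fragments that hold RNA:DNA hybrids (R-loops). The cells were mouse embryonic fibroblasts (MEFs) named Rtel1F/F;WT RNH1-GFP, homozygous for a floxed allele of Rtel1, the gene of a DNA helicase that unwinds G-quadruplexes, and carrying a GFP fusion of wild-type RNaseH1, the enzyme that degrades the RNA of such hybrids. Cells were infected with an adenovirus that expresses either GFP (Ad-GFP, the control) or Cre with GFP (Ad-Cre, which deletes Rtel1). After 48 h they received doxycycline at 2 μg/ml for 48 h, which turns on the RNaseH1 fusion (DOX), or were mock treated. The control cells gave the groups GFP mock and GFP DOX, and the deleted cells gave Cre mock and Cre DOX. Where 4 values follow each other below they stand in that order, called list order. All of them carried the floxed allele, the RNaseH1 fusion gene and an adenovirus with GFP, and the labels describe 1 cell line with no number of embryos. Each group was 1 library made from 3 pooled immunoprecipitations, so no difference between groups could be set against a spread between replicates and none was tested. The 95% intervals below are exact Clopper-Pearson intervals and cover counting error only.

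The families take part in laying out the body. Hox proteins give cells their position along the head-to-tail axis and sit in 4 clusters in which gene order follows the order of expression. Pax, Lhx, Dlx, Irx and Six-family proteins are further homeodomain or paired-domain factors that pattern the nervous system, sense organs, muscle and kidney. Sox proteins bind DNA through an HMG box, Fox proteins through a forkhead domain and Tbx proteins through a T-box. Many of these genes have CpG islands at their start sites and are held silent by Polycomb proteins in cells that do not use them, while fibroblasts keep parts of the Hox clusters active according to where in the body they came from. R-loops form behind RNA polymerase, most readily where the displaced strand is rich in G and can fold into a G-quadruplex (G4).

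The lists held 87613, 60219, 91097 and 105081 peaks in list order. They hold no read totals, so the sequencing depth behind a peak is unknown and an absent peak shows only that none was called. The Cre DOX list stood apart: its peaks had a mean width of 847.0 bp against 413.6 to 532.3 bp in the others, and 75.2% of them were mostly repeat-masked sequence against 54.1% to 63.8%. A peak list is no measure of expression and cannot separate fewer cells with a hybrid from fewer hybrids per cell, nor can it check the cell type: of 10 fibroblast markers, 6, 5, 7 and 6 carried a peak in list order, and of 10 markers of other cell types, 6, 7, 4 and 4 did. Rtel1 carried 0, 0, 2 and 1 peaks in the same order. Their place relative to the deleted part of the gene was not examined, so they are no check of the deletion.

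With peaks of any score, the developmental factors carried peaks most often in GFP mock. In GFP mock, 113 of the 150 genes had a peak, or 75.3% (interval 67.6% to 82.0%), against 55.0% of all protein-coding genes. In GFP DOX the count was 84, or 56.0% (47.7% to 64.1%), against 46.0% of all genes. In Cre mock it was 102, or 68.0% (59.9% to 75.4%), against 60.4%. In Cre DOX it was 79, or 52.7% (44.4% to 60.9%), against 54.1%. The share of the factors minus that of all genes was thus 20.4, 10.0, 7.61 and -1.47 percentage points in list order. The negative sign in Cre DOX turned when mostly masked peaks were left out, which gave 6.23 points.

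**Figure D1:**
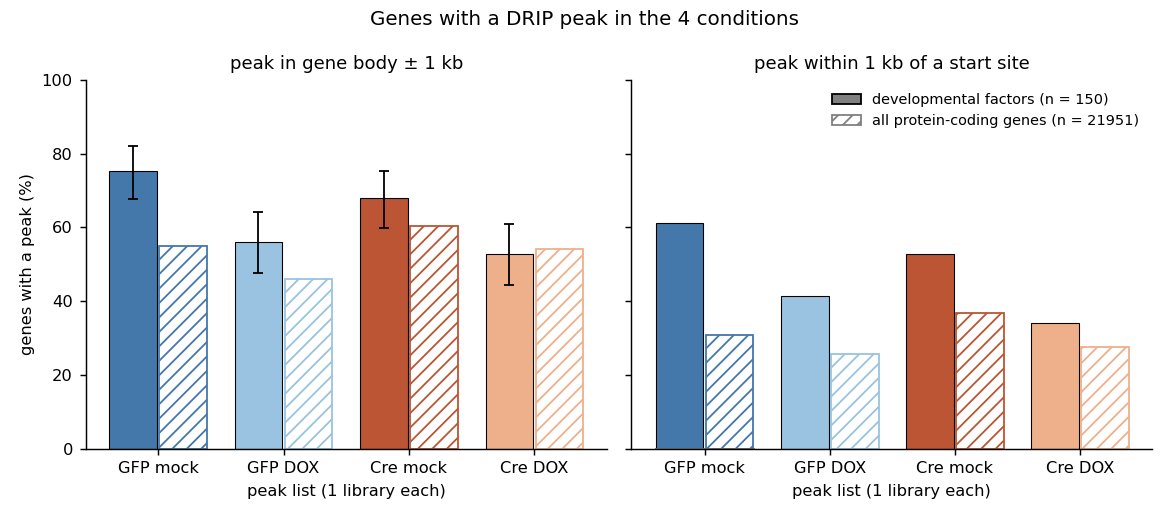
Share of genes with a DRIP peak (y axis, percent) in each peak list (x axis), in the gene body with 1 kb on each side (left) and within 1 kb of a start site (right). Filled bars are the 150 developmental factors with 95% exact binomial intervals on the left panel, hatched bars are all 21951 protein-coding genes; on the left the filled bar lies highest in GFP mock, at 75.3%, and on the right it lies above the hatched bar in each list.

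The gap was wider at start sites. A peak within 1 kb of an annotated start site was found for 92 developmental factors in GFP mock (61.3%, all genes 30.8%), 62 in GFP DOX (41.3%, all genes 25.8%), 79 in Cre mock (52.7%, all genes 36.7%) and 51 in Cre DOX (34.0%, all genes 27.6%). Peaks in the top decile of their list's scores, the filter the study used, were less common. The score of a peak is 10 times the negative log10 of its q-value, and the top decile began at 33, 28, 33 and 31 in list order. Such a peak was found in 28 factors in GFP mock (18.7%, all genes 13.1%), 22 in GFP DOX (14.7%, all genes 9.92%), 27 in Cre mock (18%, all genes 16.7%) and 9 in Cre DOX (6.0%, all genes 9.91%).

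Deletion of Rtel1 was the study's main contrast, and with peaks of any score the developmental factors and all genes ran in opposite directions. From GFP mock to Cre mock the share of all protein-coding genes with a peak was 5.43 points higher, whereas that of the developmental factors was 7.33 points lower (the difference was -7.33). A peak in Cre mock and not in GFP mock was seen for 12 factors (8.00%, all genes 13.6%). The reverse, a peak in GFP mock and not in Cre mock, was seen for 23 (15.3%, all genes 8.22%). The 12 were Foxo4, Hoxa11, Lhx3, Sox7, Tbx1, Irx4, Six4, Sox21, Foxo1, Sox10, Sox2 and Foxk2. With doxycycline in Cre cells, 8 of these (66.7%) had no peak, against 1439 of the 2996 such genes overall (48.0%). In GFP DOX, 4 of the 12 (33.3%) had a peak, against 37.9% of such genes overall. The order of the mock lists among the developmental factors turned with peaks of a negative log10 q-value of at least 2 only, where 50.0% had a peak in GFP mock and 51.3% in Cre mock, so that the factors ran the same way as all genes (35.5% and 44.1%). It did not turn with the stricter top decile, at 28 and 27 factors.

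In the doxycycline-treated cells the same contrast gave 12 factors with a peak in Cre DOX and not in GFP DOX (8.00%, all genes 15.2%) and 17 the other way round (11.3%, all genes 7.02%). With peaks of any width, doxycycline itself went with fewer developmental factors in both kinds of cell. In GFP cells, 37 factors had a peak in mock and not in DOX (24.7%, all genes 15.9%), and 8 had one in DOX and not in mock (5.33%, all genes 6.92%). In Cre cells, 33 had one in mock and not in DOX (22%, all genes 13.9%), and 10 had one in DOX and not in mock (6.67%, all genes 7.62%). The narrowest peak was 106, 107, 132 and 213 bp in list order, so Cre DOX held none under 213 bp. With peaks of at least 213 bp only, 56.0% of factors had one in Cre mock and 52.7% in Cre DOX. All genes then went the other way, at 51.9% and 54.1%. In GFP cells the factors were at 60.7% in mock and 44.7% in DOX (all genes 43.7% and 37.6%). The 4 contrasts share lists with each other, so they are not independent of one another.

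Counting peaks rather than genes put Cre mock slightly above GFP mock. The developmental factors held 290, 183, 300 and 169 distinct peaks in list order. Per 100 kb of gene sequence this was 5.01, 3.16, 5.18 and 2.92 peaks, against 3.19, 2.39, 4.10 and 3.35 over all protein-coding genes. The density of the factors was therefore the higher one in each list but Cre DOX. Without the Hox genes it was 4.28, 2.57, 4.31 and 2.42, close to that of all genes in GFP DOX and Cre mock. Peaks then covered 1.63%, 1.22%, 2.05% and 1.44% of the sequence, against 1.27%, 1.27%, 2.20% and 2.42% over all genes. Most peaks of any score did not lie at the same place in the mock lists, while most top-decile peaks did. Of the 300 peaks in Cre mock, 185 (61.7%, interval 55.9% to 67.2%) overlapped no GFP mock peak, and of the 290 in GFP mock, 171 (59.0%, 53.1% to 64.7%) overlapped no Cre mock peak. Over all genes these shares were 71% and 59.8%. Of top-decile peaks, 10 of 30 in Cre mock (33.3%) and 10 of 27 in GFP mock (37.0%) overlapped no peak of the other list, against 41.6% and 38.2% over all genes.

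The developmental factors are short genes with CpG-rich promoters. Their median length was 6.55 kb against 17.4 kb over all protein-coding genes. A promoter with a CpG ratio (observed over expected) of at least 0.6 was present in 59.3% of them and in 33.9% of all genes. Among genes shorter than 5 kb, 74.6%, 44.1%, 57.6% and 42.4% of 59 factors had a peak in list order, while all 4153 genes of that length reached 27.1%, 24.2%, 31.8% and 27.6%. Among genes longer than 50 kb, 94.7%, 73.7%, 89.5% and 73.7% of 19 factors had a peak, against 85.6%, 72.2%, 88.0% and 82.9% of all genes of that length. The gap was thus wider under 5 kb than over 50 kb in each list.

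**Figure D2:**
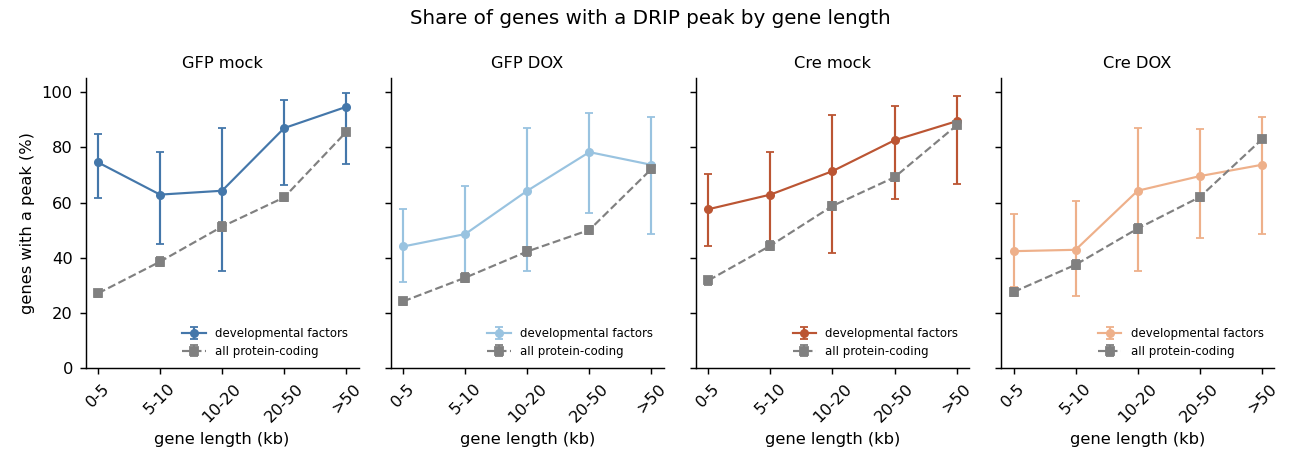
Share of genes with a DRIP peak (y axis, percent) by gene length (x axis, kb) in each of the 4 lists; coloured circles are the developmental factors and grey squares all protein-coding genes, with 95% exact binomial intervals. Under 5 kb the factors lie at 74.6% in GFP mock, where all genes lie at 27.1%.

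By CpG ratio alone, 76.4%, 58.4%, 70.8% and 57.3% of 89 factors at 0.6 or more had a peak in list order. All such genes reached 70.6%, 64.2%, 81.3% and 72.2%. Of 61 factors below 0.6, 73.8%, 52.5%, 63.9% and 45.9% did, against 46.9%, 36.6%, 49.6% and 44.8% of all such genes. With both features bounded, among short genes with CpG-rich promoters, the gap remained in 1 list. Among genes shorter than 10 kb with a CpG ratio of at least 0.6, 74.6% of 59 factors had a peak in GFP mock (interval 61.6% to 85.0%), against 56.7% of 1606 such genes. In GFP DOX the shares were 52.5% and 55.9%, in Cre mock 64.4% and 68.3%, and in Cre DOX 49.2% and 56.7%. In these 3 lists the share of all such genes lay inside the interval of the factors. What else such genes share was not tested.

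By family, GFP mock was the highest or joint highest list for Hox, Pax, Fox, Tbx, Lhx, Dlx and Six-family genes, and the families differed in how far the other lists fell below it. Of the 39 Hox genes, 30, 22, 25 and 21 had a peak in list order (76.9%, 56.4%, 64.1% and 53.8%). For the 44 Fox genes the counts were 32, 26, 28 and 22 (72.7%, 59.1%, 63.6% and 50.0%). All protein-coding genes were at 55.0%, 46.0%, 60.4% and 54.1%, so both families lay near them in Cre mock and Cre DOX.

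Sox genes, among them the factors of neural progenitors, cartilage and blood vessels, had their highest count in Cre mock, with 14, 12, 16 and 10 of 19. With peaks of any score in the extended gene body, no other family was highest there alone, and Six-family genes tied. With the q-value limit of 2, Pax, Irx and Six-family genes had their highest count there too. At start sites Tbx and Six-family genes did. The GFP mock and Cre mock counts of Sox genes differ by 2 and their intervals overlap (48.8% to 90.9% and 60.4% to 96.6%). The share of all protein-coding genes was also highest in Cre mock. Sox15, Sox18 and Sox3 had a peak in both mock lists and in neither DOX list. The 6 Irx genes, which pattern heart, limb and neural tube, had their highest count in Cre DOX, with 3, 1, 3 and 5, but not with equal numbers of peaks per list, which gave 3, 1, 3 and 2, nor with the q-value limit, which gave 2, 1, 3 and 2. With peaks of any score, every family had its lowest or joint lowest count in a DOX list. Pax had 8, 5, 7 and 5 of 9 genes, Tbx 10, 6, 9 and 6 of 13, and Lhx 7, 6, 6 and 4 of 8. Dlx had 5, 2, 4 and 3 of 6, and the Six-family genes 4, 4, 4 and 3 of 6. In families of 6 to 13 genes the intervals span most of the range, for example 11.8% to 88.2% for 3 of 6 genes, and they overlap between the lists.

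**Figure D3:**
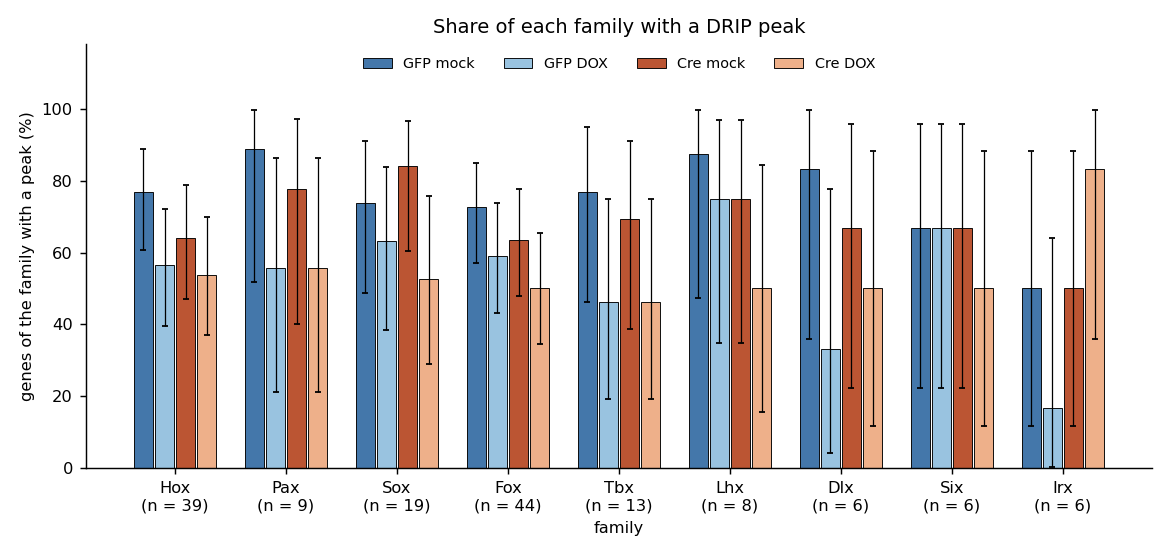
Share of the genes of each family with a DRIP peak (y axis, percent; number of genes under each family) in the 4 lists, with 95% exact binomial intervals. Sox genes lie highest in Cre mock (84.2%) and Irx genes in Cre DOX (83.3%), and the intervals of the small families overlap across lists.

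Taken as 1 group, Hox genes were more densely covered by peaks than protein-coding genes in general. The Hox genes held 16.7, 12.6, 19.1 and 10.9 peaks per 100 kb in list order, and peaks covered 8.83%, 8.66%, 13% and 9.59% of their sequence, against 1.27%, 1.27%, 2.20% and 2.42% over all protein-coding genes. Coverage differed between the clusters, and in Hoxd genes it was 2.69%, 0.422%, 1.68% and 1.37%, below that of all genes in each list but GFP mock. Hoxb (chr11:96194316-96368256) held 26, 25, 35 and 23 peaks and Hoxc (chr15:102921103-103036852) 24, 15, 29 and 14. Hoxa (chr6:52155590-52260880) held 9, 5, 11 and 5, and Hoxd (chr2:74668310-74765142) 6, 1, 4 and 2. By gene, 9, 8, 8 and 8 of 10 Hoxb genes and 9, 8, 8 and 7 of 9 Hoxc genes had a peak, whereas 7, 5, 6 and 4 of 11 Hoxa genes and 5, 1, 3 and 2 of 9 Hoxd genes did. With doxycycline, 7 or 8 Hoxb and Hoxc genes each had a peak, and 1 or 2 Hoxd genes did.

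Pooled over the clusters, the middle genes had a peak most often. Of the 8 genes of paralogue groups 1 to 3, which pattern the hindbrain and pharyngeal arches, 5, 2, 2 and 2 had a peak. Of the 15 genes of groups 4 to 8, which act in the neck and thorax, 14, 12, 13 and 11 did. Of the 16 genes of groups 9 to 13, which act in the lower trunk, limbs and genital region, 11, 8, 10 and 8 did. This order was not seen in every cluster: all Hoxb genes of both later sets had a peak in each list, and in Hoxd 3, 1, 2 and 2 of the 5 genes of groups 9 to 13 had one against 1, 0, 1 and 0 of the 2 genes of groups 4 to 8. Neighbouring Hox genes overlap each other in part, so that 1 peak can count for more than 1 gene. Hoxa10, Hoxb1, Hoxd3, Hoxd4, Hoxd10 and Hoxd12 were among the 7 Hox genes with no peak in any list, and 19 Hox genes had one in all 4.

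**Figure D4:**
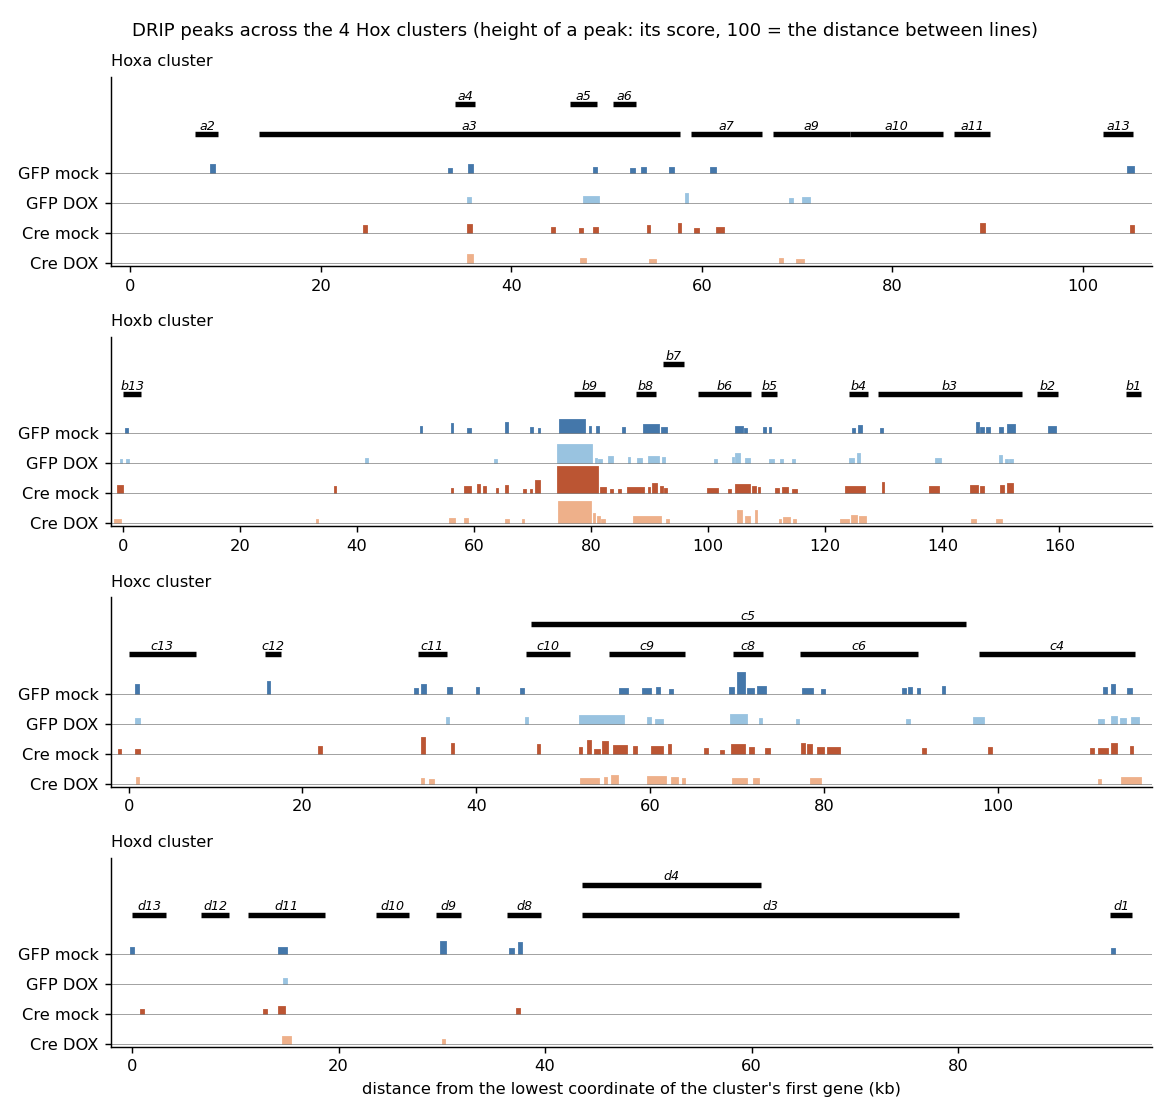
Positions of DRIP peaks in the 4 Hox clusters (x axis, kb from the lowest coordinate of the cluster's first gene) in each list, with the labelled genes drawn as black bars above; the height of a coloured block is the peak's score, and 100 score units equal the distance between list lines. The tallest and widest block in each list of the Hoxb cluster lies over the start of Hoxb9, with scores of 46, 60, 89 and 73.

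The widest Hox peak of each list lay over the start of Hoxb9, which patterns the thoracic skeleton and the position of the forelimb. It spanned 4422, 5759, 6676 and 5509 bp in list order, with scores of 46, 60, 89 and 73. These are scores within each list and are not scaled to depth between lists, and the lowest percentile of the peak within its list was 96.4, in GFP mock. All 4 peaks cover chr11:96268910-96273331. The middle 200 bases of that stretch (chr11:96271021-96271220, mm10, plus strand, upstream of the gene) are shown because this was the only Hox site in the top decile of every list. Capitals mark the windows of 25 bases with an absolute G4Hunter score of at least 1.5, a measure of G or C runs that predicts a G4; here the runs are of C, so the G-rich strand is the opposite one.
Hoxb9: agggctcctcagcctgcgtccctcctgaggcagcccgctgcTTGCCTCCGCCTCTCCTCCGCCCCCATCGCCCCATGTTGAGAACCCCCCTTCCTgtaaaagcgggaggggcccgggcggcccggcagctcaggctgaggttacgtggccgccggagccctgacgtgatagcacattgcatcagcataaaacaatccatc

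Elsewhere in Hoxb, the Hoxb6 peak reached 20, 32, 28 and 42, and the best Hoxb4 peak 24, 32, 20 and 25, in list order. In Hoxc, the long Hoxc5 transcript unit of 50.0 kb overlaps Hoxc6, Hoxc8, Hoxc9 and Hoxc10 and held 15, 9, 19 and 9 peaks. Its best peak in GFP mock (score 70, chr15:102991234-102992001) lay over the start of Hoxc8, a thoracic patterning gene. In Cre mock the best peak of Hoxc5 (43) lay elsewhere in the unit, at chr15:102974010-102974345. In Hoxd, the only gene with a peak in all 4 lists was Hoxd11, a limb and kidney gene, at 19, 16, 24 and 21. The remaining Hoxd peaks of GFP mock, over Hoxd1, Hoxd8, Hoxd9 and Hoxd13, were absent from GFP DOX, and 1 of these genes, Hoxd9, had a peak in Cre DOX (score 11).

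A peak in all 4 lists was found for 64 of the 150 factors (42.7%, all genes 33.5%), and in no list for 18 (12.0%, all genes 26.1%). The 64 were made up of 19 Hox, 19 Fox, 7 Sox, 5 Pax, 5 Tbx, 4 Lhx, 2 Dlx, 1 Irx and 2 Six-family genes. The 18 held 7 Hox and 7 Fox genes, the latter being Foxa1, Foxa2, Foxb1, Foxh1, Foxi2, Foxi3 and Foxl1, and in addition Irx6, Pax4, Six6 and Tbx22. A peak in every list did not mean the same peak. In 32 of the 64 genes there was a stretch that peaks of all 4 lists covered, and in the other 32 the peaks lay at different places. Over all protein-coding genes, 46.6% of those with a peak in every list had such a stretch, and for the factors this was 50.0%.

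The 32 factors with a shared stretch were 15 Fox, 13 Hox, 2 Sox, 1 Tbx and 1 Irx genes, and no Pax, Lhx, Dlx or Six-family gene had one. They held 38 shared stretches with a median width of 281 bp and a median GC content of 68.9%. Of the 38, 25 lay within 1 kb of a start site of the gene, and 28 (73.7%) held a predicted G4. Mostly masked sequence was found in 3. These values were not computed for the shared stretches of all protein-coding genes, so whether they differ from those was not tested.

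The stretch with the highest scores in GFP mock and GFP DOX was at Sox8, a factor of neural crest, glia and testis, and it was one of those 3. In Cre mock Hoxb9 and Foxm1 scored higher, and in Cre DOX Hoxb9 did. It lay past the 3′ end of the gene, 4948 bp from the nearest start site, and the peaks over it scored 147, 91, 59 and 70 in list order. These peaks reached beyond the stretch, and those of all lists but Cre DOX held a predicted G4 outside it. Its fold enrichment over the peak caller's local background was 8.30, 6.89, 5.17 and 5.34. The middle of the stretch (chr17:25565048-25565247, mm10, minus strand, the strand of Sox8) is shown because it is the top site of the factors in 2 lists: all of the part shown is repeat-masked, it consists of GT repeats of which the longest unbroken one is 28 bases, and it holds no predicted G4, so no base is in capitals.
Sox8: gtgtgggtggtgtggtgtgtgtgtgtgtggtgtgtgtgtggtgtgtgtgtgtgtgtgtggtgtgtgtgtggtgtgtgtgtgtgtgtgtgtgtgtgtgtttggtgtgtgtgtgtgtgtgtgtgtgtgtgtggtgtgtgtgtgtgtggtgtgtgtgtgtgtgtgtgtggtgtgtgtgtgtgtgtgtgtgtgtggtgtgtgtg

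To set GC-rich sites beside the Sox8 repeat, shared stretches of 50 to 300 bases with a predicted G4 and no untranslated base are shown for 3 further factors, which were among those with the highest values of the lowest of their 4 percentiles. Hoxa4 (chr6:52191142-52191392, minus strand) is a neck and thorax gene with 215 coding bases among the 251 shown, and the stretch also lies inside the longer Hoxa3 unit. Hoxd11 (chr2:74683031-74683097, plus strand) is coding over its 67 bases. Foxf1 (chr8:121084306-121084362, plus strand), a factor of lung and gut mesenchyme, is shared over 57 bases just upstream of the gene, and 78.9% of them are repeat-masked. Capitals mark predicted G4 windows as before. The runs are of C in Hoxa4 and Foxf1 and of G in Hoxd11. These sites were chosen after their values were seen.
Hoxa4: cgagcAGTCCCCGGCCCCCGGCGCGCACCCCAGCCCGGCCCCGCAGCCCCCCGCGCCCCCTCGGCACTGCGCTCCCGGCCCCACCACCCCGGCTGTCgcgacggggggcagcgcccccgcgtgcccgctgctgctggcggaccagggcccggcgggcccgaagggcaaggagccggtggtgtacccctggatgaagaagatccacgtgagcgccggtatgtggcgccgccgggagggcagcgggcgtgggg
Hoxd11: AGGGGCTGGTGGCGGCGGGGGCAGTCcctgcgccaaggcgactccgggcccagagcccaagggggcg
Foxf1: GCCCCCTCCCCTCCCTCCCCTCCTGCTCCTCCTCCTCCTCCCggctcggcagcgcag

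The scores at these sites were lower than those of Sox8 and Hoxb9. In list order, the peaks over the shared stretch scored 29, 18, 28 and 29 at Hoxa4 and 19, 16, 24 and 21 at Hoxd11. At Foxf1 they scored 25, 20, 47 and 16, and only the Cre mock peak was in its list's top decile. Broad shared sites without a printed sequence lay at the starts of Foxc1 and Foxo3. Foxc1, a factor of mesenchyme and the eye, had peaks of 3706, 3770, 3410 and 1118 bp over its start in list order.

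Of the factors with a peak in every list, Sox8, Hoxb9, Hoxa3, Hoxc5, Sox5, Foxp1, Foxm1 and Tbx5 ranked highest by the lowest of their 4 within-list percentiles. Foxm1, the forkhead factor that drives genes of cell division, had a peak over its start at 84, 79 and 75 in the first 3 lists. In Cre DOX the peak over its start scored 21, and the best peak of the gene (25) lay elsewhere in it. The peak also overlaps the neighbouring gene Rhno1, which runs the other way, and cannot be assigned to either.

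Tbx5, which the heart and forelimb need, showed scores of 53, 46, 98 and 25. In the first 3 lists the best peaks overlapped each other at 1 of its start sites, in sequence that was 57.5%, 52.0% and 62.4% masked, while the Cre DOX peak was intronic. Hoxa3, which builds the thymus and parathyroid, scored 29, 31, 32 and 29. Its best peaks in GFP mock and Cre DOX overlapped each other inside Hoxa4, and those of GFP DOX and Cre mock lay elsewhere. Sox5, a cartilage factor and with 953.6 kb the longest gene of the set, held 15, 5, 21 and 5 peaks. Foxp1, a factor of heart, B cells and neurons that spans 597.4 kb, held 11, 6, 12 and 10. The best peaks of Sox5 lay at different places in the 4 lists. Long genes have more room for peaks, as the values by gene length show.

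**Figure D5:**
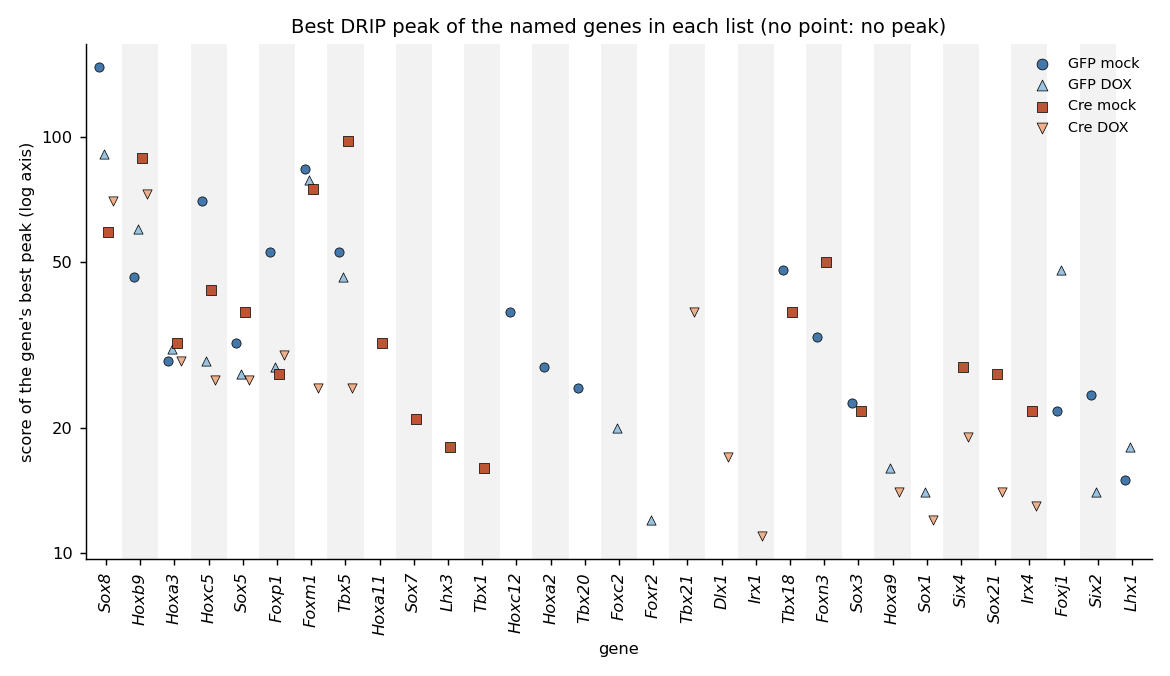
Score of the best DRIP peak (y axis, log scale; 10 times the negative log10 q-value) of the named genes (x axis) in each list, with a missing point where the gene had no peak. The 8 genes on the left had a peak in all 4 lists, with Sox8 reaching 147 in GFP mock, and the genes with a peak in 1 list reach at most 38.

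Some of the highest single peaks belonged to genes outside that order. Foxn4, a factor of retinal and spinal interneurons, had intronic best peaks of 128, 44 and 85 in the first 3 lists in list order, and none in Cre DOX. Pax5, the B cell identity factor, had an intronic peak of 113 in GFP mock and best peaks of 16, 44 and 18 in the other lists. Both were named after their values were seen.

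The pattern of interest to the study, a peak in Cre mock and in no other list, was found for 5 factors (3.33%, all genes 5.04%). The mirrored counts were 15 in GFP mock alone (10.0%, all genes 3.87%), 2 in GFP DOX alone (1.33%, all genes 1.10%) and 3 in Cre DOX alone (2.00%, all genes 3.58%). Counted as genes, GFP mock alone was thus the most frequent of these 4 patterns among the factors, and Cre mock alone was among all genes. With top-decile peaks only, the count was 12 in Cre mock alone (8.00%, all genes 6.42%) and 10 in GFP mock alone (6.67%, all genes 4.20%), so that the order among the factors depended on the filter. With a 5 kb extension, GFP mock alone fell to 8 factors (all genes 3.62%), against 5 in Cre mock alone (all genes 3.95%).

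The 5 genes with a peak in Cre mock alone were Hoxa11, Sox7, Lhx3, Tbx1 and Foxo4. Hoxa11, which shapes the forearm and the uterus, had the highest of these scores, 32, within 1 kb of its start (chr6:52244940-52245262), and the antisense gene Hoxa11os overlaps the site. Sox7, an endothelial factor, scored 21 and Lhx3, a pituitary and motor neuron factor, 18. Tbx1, a pharyngeal arch factor, scored 16. These peaks also lay within 1 kb of a start site, while that of Foxo4, a FoxO factor downstream of insulin signalling, lay in an untranslated exon and scored 14. None of the 5 scores reached the top decile, which began at 33 in Cre mock.

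In GFP mock alone the highest scores were those of Hoxc12 (38), a posterior Hox gene, Hoxa2 (28), which patterns the second pharyngeal arch, and Tbx20 (25), a heart factor. The other 12 were Dlx6, Foxa3, Foxd4, Foxr1, Foxs1, Hoxa6, Hoxb2, Hoxd1, Lhx5, Pax6, Sox17 and Tbx19. The sites of Hoxa11 and Hoxc12 are shown because they led the opposite patterns. The 200 bases of Hoxa11 (chr6:52245001-52245200, mm10, minus strand, 190 of them coding) are 74.0% GC, and the 195 bases of Hoxc12 (chr15:102937066-102937260, mm10, plus strand, all coding) are 72.3% GC. Neither holds a predicted G4, so neither has capitals.
Hoxa11: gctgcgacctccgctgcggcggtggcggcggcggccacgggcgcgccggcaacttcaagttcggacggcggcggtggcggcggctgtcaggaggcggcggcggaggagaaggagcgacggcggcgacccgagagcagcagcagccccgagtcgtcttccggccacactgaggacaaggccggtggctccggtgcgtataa
Hoxc12: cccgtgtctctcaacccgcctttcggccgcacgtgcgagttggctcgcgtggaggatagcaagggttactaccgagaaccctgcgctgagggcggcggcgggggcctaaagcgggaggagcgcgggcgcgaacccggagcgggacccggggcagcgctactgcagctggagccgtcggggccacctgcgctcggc

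Single-list peaks in the DOX lists were few. Foxc2, a lymphatic and mesenchymal factor, scored 20 and Foxr2, a forkhead factor, 12, in GFP DOX alone. Tbx21, which encodes the T helper cell factor T-bet, scored 38 in Cre DOX alone, and that peak, in a coding exon, was in the top decile. Dlx1, a forebrain interneuron factor, scored 17 and Irx1 11 in Cre DOX alone.

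A peak in both mock lists and in neither DOX list, the pattern of a signal that went with RNaseH1 induction in both genotypes, was found for 16 factors (10.7%, all genes 3.86%). The reverse, both DOX lists and neither mock list, was found for 2 (1.33%, all genes 0.638%), Hoxa9 and Sox1. Of the 16, 4 were Fox, 3 Hox, 3 Sox, 2 Pax, 2 Tbx and 2 Dlx genes. Tbx18, a factor of the epicardium and ureter, led them with 48 in GFP mock and 38 in Cre mock, both within 1 kb of its start. Foxn3, a broadly expressed repressor of 374 kb, had 10 peaks in GFP mock and 7 in Cre mock and none with doxycycline in either genotype. Sox3, an X-linked neural progenitor factor, scored 23 and 22. The others were Dlx4, Dlx5, Foxb2, Foxe3, Foxi1, Hoxa13, Hoxd13, Hoxd8, Pax3, Pax8, Sox15, Sox18 and Tbx10. For Tbx18 (142 bp), Dlx4, Dlx5, Pax3, Pax8, Sox15 and Tbx10, the best Cre mock peak was narrower than any Cre DOX peak, of which the narrowest was 213 bp. For these genes a missing Cre DOX peak cannot be read as a response to RNaseH1. In the rest of the 16 the best Cre mock peak was wider than that.

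Patterns that followed the genotype were rarer. Both Cre lists and neither GFP list held 3 factors (2.00%, all genes 3.43%): Six4, a muscle factor (28 in Cre mock and 19 in Cre DOX), Sox21, a neural factor (27 and 14), and Irx4, a factor of the heart ventricle (22 and 13). Both GFP lists and neither Cre list held 3 (2.00%, all genes 0.943%): Foxj1, the factor of motile cilia (22 in GFP mock and 48 in GFP DOX), Six2, of kidney progenitors (24 and 14), and Lhx1, of the embryonic organizer and kidney (15 and 18). The peaks of Irx4, Foxj1, Six2 and Lhx1 lay within 1 kb of a start site in both of their lists.

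By number of peaks, the leading gene of each family over the 4 lists was Hoxc5, Sox5, Foxp4, Pax7, Tbx15, Lhx6, Six3, Irx2 and, level with each other, Dlx2 and Dlx3. Foxp4, a forkhead factor of lung and gut, held 14, 10, 16 and 12 peaks in list order. Pax7, the factor of muscle stem cells, held 12, 3, 6 and 7. Lhx6, of cortical interneurons, held 4, 4, 8 and 5, and Tbx15, of skeleton and skin, 5, 2, 4 and 4. Six3, a forebrain and eye factor, held 5, 2, 4 and 1. Irx2 held 3, 2, 3 and 1, and its best peaks overlapped each other over the start of the gene in all 4 lists, with scores of 22, 21, 33 and 29.

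The peaks of the factors had median scores like those of other genic peaks but were richer in GC and in predicted G4s. Their median score was 18, 17, 20 and 17 in list order, against 18, 16, 19 and 17 over all peaks in protein-coding genes. Their median GC content was 57.4%, 55.8%, 54.5% and 53.2%, against 50.0%, 49.6%, 49.2% and 45.6%. A predicted G4 lay in 57.9% (interval 52.0% to 63.7%), 59.0% (51.5% to 66.2%), 54.7% (48.8% to 60.4%) and 61.5% (53.8% to 68.9%) of them, against 34.4%, 34.7%, 35.6% and 33.2%. Mostly masked peaks made up 11.7%, 9.84%, 9.0% and 15.4%, against 38.9%, 33.0%, 28.3% and 48.1%.

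The share of peaks with a predicted G4 had overlapping intervals in the 4 lists. Of the 168 such peaks in GFP mock, 47 had the G-rich strand on the coding strand only, 65 on the template strand only and 56 on both, and in Cre mock these were 45, 55 and 64 of 164. By place, 45.9%, 42.6%, 41.0% and 37.9% of the peaks lay within 1 kb of a start site. Introns held 35.2%, 35.0%, 37.0% and 40.8%, and coding exons 10.3%, 11.5%, 11.3% and 12.4%. Strand and place were not set beside those of the peaks of all protein-coding genes, so whether they differ was not tested. In RefSeq's promoter sequences (250 bases before to 50 after a start, GRCm38.p6), which matched 96 of the 150 factors with 119 promoters, a predicted G4 was present in 67.2%, against 41.6% of all promoters in that table.

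The DNA had been cut with 5 restriction enzymes before the pull-down, and a hybrid brings down the whole fragment it sits on. The recognition sites GAATTC (EcoRI), AAGCTT (HindIII), TGTACA (BsrGI), AATATT (SspI) and TCTAGA (XbaI) read the same on both strands, and each match was counted. There were 16.9 sites per 10 kb in the factors and 17.7 over all protein-coding genes, and 24.4% and 27.4% of RefSeq promoters held one. The median fragment over the 5′ end of a gene was 1.97 kb for the factors and 1.53 kb for all genes. Hoxb held 13 sites per 10 kb, Hoxd 13.3, Hoxc 14.7 and Hoxa 17.4. The fragment over the Hoxb9 start ran from the site at position 96268839 to the one at 96272833, or 3.99 kb, and 1, 3, 4 and 2 sites lay inside the Hoxb9 peaks in list order. The part of fragment length in the peak counts was not tested.

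Genes that act with the factors were set beside them. Of the 15 factors listed as broadly expressed, such as Foxk1, Foxo3 and Sox4, 12, 13, 15 and 11 had a peak in list order. These were 80.0%, 86.7%, 100.0% and 73.3%, against 55.0%, 46.0%, 60.4% and 54.1% of all protein-coding genes. Of the other 135, which mostly act in particular embryonic tissues, 101, 71, 87 and 68 did (74.8%, 52.6%, 64.4% and 50.4%). The broadly expressed ones had their highest count in Cre mock, as all protein-coding genes did, with overlapping intervals in GFP mock and Cre mock (51.9% to 95.7% and 78.2% to 100.0%). The others had theirs in GFP mock. They also differ in length, with medians of 49.9 kb and 5.84 kb. Of all genes of 20 to 50 kb, 61.9%, 50.1%, 69.2% and 62.0% had a peak, and of those of 5 to 10 kb, 38.6%, 32.8%, 44.4% and 37.5%.

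Polycomb genes, whose products silence Hox and other developmental genes, carried peaks in all 4 lists at the same count, 17 of 19, but not in the same genes. Phc1 had no peak in any list. Ezh2 had none in GFP mock, Rbbp4 none in GFP DOX, Eed none in Cre mock and Rnf2 none in Cre DOX. Phc2 held 5, 4, 10 and 3 peaks and Cbx7 held 10, 6, 5 and 2. Trithorax genes and H3K27 demethylases, which oppose Polycomb, carried peaks in 8, 8, 9 and 7 of 9 genes, with Kmt2d at 14, 15, 12 and 10 peaks. The Hox cofactor genes of the Meis, Pbx and Pknox groups carried them in 8, 8, 9 and 8 of 9. The medians of length of these 3 lists were 26.3 kb, 31.7 kb and 139.2 kb, longer than that of the developmental factors. Of all protein-coding genes of 20 to 50 kb, 61.9%, 50.1%, 69.2% and 62.0% had a peak. Of those longer than 50 kb, as most Hox cofactor genes are, 85.6%, 72.2%, 88.0% and 82.9% did.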

How the data were processed

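DRIP libraries of 4 groups, 1 each, had a peak list; 4 input libraries without one were not analysed here. Per the labels and methods, the authors ran nf-core/chipseq 1.2.1 (Trim Galore, BWA, MACS2) on mm10; the deposited lists are of broad peaks although the stated command has the narrow-peak option, which bears on peak widths, counts and the top decile, and whether inputs served as control is not given in the sources used here. The deposited score is 10 times the −log10 q-value, rounded down, as was true of 99.9962% of 344010 peaks. Deposited fold enrichment and −log10 p and q columns are those of the authors' peak caller. None is scaled between libraries, and read depth is unknown. Here, peaks of any score were joined to GENCODE M21 protein-coding genes extended by 1 kb, with at least 1 bp of overlap. Predicted G4s are windows of 25 bases with an absolute G4Hunter score of at least 1.5, each base capped at 4. Named genes were those with a peak in all lists ordered by their lowest percentile, the highest scores of each list pattern and the most peaks per family; exceptions are stated, and a few items are not reported here. Members and lists were chosen with earlier results of these data known. No test between groups was possible. Alternatives were top-decile peaks, a −log10 q-value of at least 2, equal numbers of peaks (60219), peaks of at least 213 bp, peaks at most 50% masked, a 5 kb extension, no extension, the peak midpoint inside the extended gene, start sites only, each Hox cluster as 1 locus and a G4Hunter score of at least 2. Python 3.11.15, pandas 2.3.3, numpy 2.4.6 and scipy 1.17.1 were used, and the scripts were tested on simulated data.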

Additional observations from a re-analysis of the deposited data

Results flagged for a closer look

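In 4 groups of genes the number with a peak moved in opposite directions under the same contrast, and these differences were not tested, since each group was 1 library. With Rtel1 deletion, the change in Sox genes with a peak was 2 in mock cells and -2 with doxycycline. The change in Dlx genes was -1 in mock cells and 1 with doxycycline. In the Hoxd cluster it was -2 in mock cells and 1 with doxycycline. With doxycycline, the change in Irx genes was -2 in GFP cells and 2 in Cre cells. Opposite directions for Sox genes were also found with equal numbers of peaks and with the q-value limit of 2. Those for Dlx and Irx genes were lost under both: the Dlx change was 0 in mock cells and -1 with doxycycline, and the Irx change in Cre cells was -1. In the Hoxd cluster the change with doxycycline was 0 with equal numbers of peaks.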

How the results depend on the processing

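Of 85 values over all factors under other settings, 56 stayed close to the reported value, 26 moved and 3 changed sign. The share of factors with a peak, in list order, was 18.7%, 14.7%, 18% and 6.0% with top-decile peaks, 50.0%, 33.3%, 51.3% and 28.7% with the −log10 q-value limit of 2, and 61.3%, 41.3%, 52.7% and 34.0% at start sites. With equal numbers of peaks it was 65.3% in GFP mock, 59.3% in Cre mock and 38.7% in Cre DOX. With peaks of at least 213 bp it was 60.7%, 44.7% and 56.0% in all lists but Cre DOX. With a 5 kb extension it was 64.7% in Cre DOX. The difference from all genes in GFP mock was 5.57 points with top-decile peaks, 27.1 with peaks at most 50% masked and 30.6 at start sites, and in Cre mock 16.0 at start sites. In Cre DOX it changed sign to 0.864 with equal numbers of peaks, 6.23 with peaks at most 50% masked and 6.41 at start sites. Factors in Cre mock alone numbered 12 with top-decile peaks (all genes 6.42%), 14 at the q-value limit (8.76%) and 8 with the width limit (4.63%), out of 150, shares near those of all genes. Factors in GFP mock alone numbered 8 with the 5 kb extension and otherwise 10 to 21, and those in GFP DOX alone, 2 as reported, reached 8 with top-decile peaks. The causes were not tested. Among families and clusters 106 of 468 values moved, and among named genes 95 of 351. No paired analysis was possible because every group held 1 library. Unknown depth limits every absent peak.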
